A study of Rattus norvegicus with 6 samples.

Results

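Expression of 9 genes of the hypoxia response was examined in young and aged donor hearts of the rat on day 1 after transplantation. The genes were taken by symbol from the deposited expression table, which lists 22250 genes, and all 9 were found there and passed the filter on low counts. They were Hif1a and Epas1, which encode the oxygen-regulated α subunits of hypoxia-inducible factor (HIF), Egln1 and Egln3, which encode HIF prolyl hydroxylases, Vegfa and Adm, which encode secreted vascular peptides, and Ankrd37, Bnip3 and Ndrg1, which encode intracellular proteins. In oxygenated cells, prolyl hydroxylases mark HIF-α for recognition by the von Hippel-Lindau protein, a ubiquitin ligase subunit, and the α subunit is degraded. When oxygen falls, HIF-α accumulates, pairs with ARNT and binds hypoxia response elements near genes for angiogenesis, glycolysis and mitophagy. Control of HIF-α is thus largely at the protein level, which RNA-Seq does not measure, and Egln3, Vegfa, Adm, Ankrd37, Bnip3 and Ndrg1 are widely used as transcript readouts of HIF activity.

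The young group (labelled WT) comprised hearts 3, 13 and 15 from donors aged 10 weeks, and the aged group (labelled OT) comprised hearts 3, 4 and 7 from donors aged 1 year. All 6 donors were Sprague-Dawley rats with the genotype label WT, and every heart was kept in cold storage and then placed heterotopically into a young recipient before left ventricular myocardium was taken on postoperative day 1. Only male rats were studied, no heart without transplantation was among the 6 libraries, and blood cells of the recipient can enter the graft. Hearts that share a number in the 2 groups are different animals. Each library held 21457509 to 24560869 reads on genes. The share of reads on 13 mitochondrial genome genes was 11.9% to 21.7% in young and 6.56% to 10.3% in aged donor hearts. Levels are given as CPM, the read count relative to library size after TMM scaling, which uses the trimmed mean of log ratios between libraries.

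Markers of the main heart cell type differed strongly between these samples of myocardium. The summed level of 11 cardiomyocyte markers was 103176, 113582 and 14408 CPM in young hearts 3, 13 and 15, and 623, 8726 and 7834 CPM in aged hearts 3, 4 and 7. Young heart 15 therefore stood apart from the other young hearts and next to aged hearts 4 and 7, and aged heart 3 retained the least cardiomyocyte signal. The summed level of 9 neutrophil markers was 17.1 to 143 CPM in young and 384 to 1465 CPM in aged donor hearts. That of 9 macrophage markers was 330.2 to 2302 and 3633 to 7011 CPM. The macrophage sum was mostly Lyz2 by group means (525 CPM in young, 3384 CPM in aged). Lyz2, Cd14, Cd163 and Adgre1 did not overlap, with aged hearts above, while Cd68, Csf1r, Mrc1, C1qa and C1qb overlapped. Endothelial markers (8 genes, of which Cldn5 had no read in any heart) spanned 1482 to 2054 CPM in young and 1427 to 2007 CPM in aged donor hearts, and smooth muscle and pericyte markers (6 genes) 783 to 1062 and 633 to 837 CPM. Within these sums, Emcn (mean 58.3 CPM in young, 23.1 CPM in aged) and Rgs5 (231 and 45.7 CPM) did not overlap, with aged hearts below. Eng (457 and 626 CPM) did not overlap either, with aged hearts above, and the other genes of these sums overlapped. Fibroblast markers (6 genes) spanned 6250 to 7806 CPM in young and 2019 to 4144 CPM in aged donor hearts. That sum was mostly Col3a1 and Col1a1, whose groups did not overlap, with aged hearts below. Those of Pdgfra (mean 176 CPM in young, 308 CPM in aged), Dcn, Lum and Tcf21 overlapped. T cell markers (6 genes) spanned 3.43 to 58.2 and 70.4 to 108 CPM, and red blood cell markers (5 genes) 728 to 5778 and 246 to 3095 CPM. By group means the T cell sum was mostly Cd8a (19.7 CPM in young, 83.6 CPM in aged). Cd8a and Cd2 did not overlap, with aged hearts above, while Cd3e, Cd3d, Cd3g and Cd5 overlapped at means up to 1.17 CPM. In bulk tissue, fewer cells of a type and less RNA per cell cannot be told apart. The part of these cell type differences in the results below was not tested. Values with a marker score as a covariate are given, but they do not decide it. The cardiomyocyte sum was lower in every aged than in every young donor heart. A fit with the cardiomyocyte score as a covariate therefore cannot separate donor age from marker level.

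The 9 genes did not move in one direction. Genes were called at the study's limits for fold change (more than 1.5 or less than 0.67) and p (under 0.05), for which the unadjusted p was used here. By these limits 3 genes were higher in aged donor hearts (Hif1a, Adm and Ndrg1), 3 were lower (Vegfa, Egln3 and Bnip3) and 3 did not pass both limits. Of these, Epas1 and Egln1 were past the fold limit but not the p limit, and Ankrd37 was past neither. The same limits were passed by 32.2% of the 13784 genes tested in edgeR's quasi-likelihood test, 13.2% higher and 19.0% lower, so passing them was common in this comparison. The median log2 fold change was -0.66 over the 9 genes and 0.016 over all genes tested. The 3 aged and 3 young donor hearts did not overlap for Hif1a, Adm and Ndrg1, each with the aged hearts above, a separation in that direction seen in 21.0% of genes. After Benjamini-Hochberg adjustment over all genes, edgeR gave 0 of the 9 genes and 0 of all genes an adjusted p under 0.05, against 4731 genes with an unadjusted p under 0.05. Under other tests, DESeq2 gave 3592 genes (26.1%) and limma-voom with quality weights 8417 genes (61.1%) an adjusted p under 0.05, with 5 and 8 of the 9 genes among them. With libraries scaled by their totals alone, which shifted the median over all tested genes to 0.46, 4 of the 9 were past the limits (Hif1a, Adm, Vegfa and Bnip3), beside 33.3% of all genes.

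Young heart 15 differed from the other young hearts in most of the 9 genes. Its log2 CPM lay nearer to the aged mean than to the mean of young hearts 3 and 13 in 7 of the 9 genes, the exceptions being Hif1a and Adm. Without it, 8 of the 9 genes were past the limits, 3 higher and 5 lower, beside 51.1% of all genes (26.9% higher and 24.2% lower), and 7 of the 9 had a Benjamini-Hochberg adjusted p under 0.05 in edgeR, beside 48.3% of all genes. Without aged heart 3, 1 gene (Hif1a) was past the limits, beside 22.2% of all genes. Without young heart 13 or aged heart 4, 2 genes were (Hif1a and Adm), beside 17.7% and 25.3% of all genes.

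**Figure D1:**
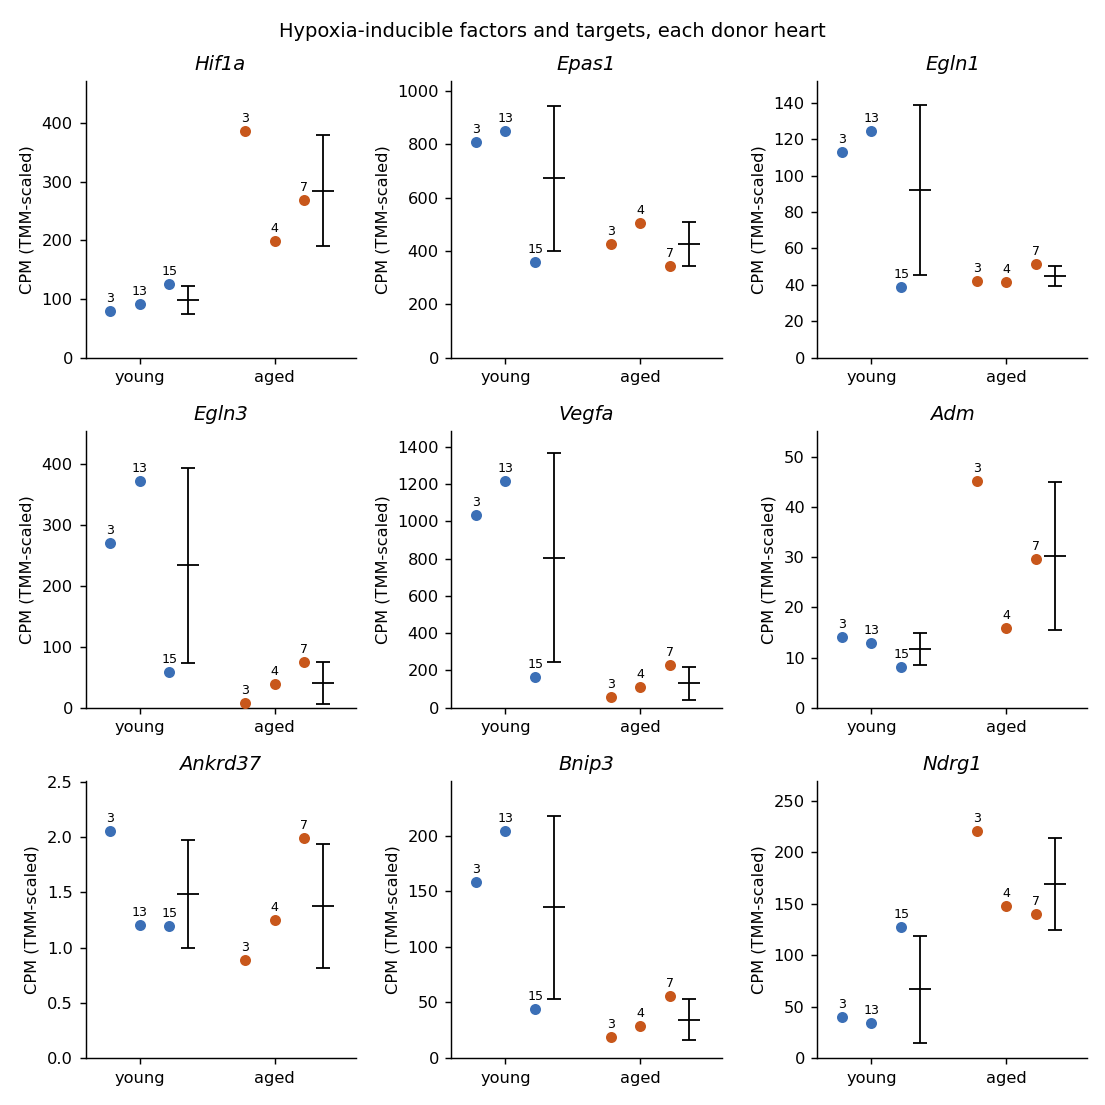
TMM-scaled CPM (linear axis) of the 9 genes in each young (blue) and aged (orange) donor heart, with the heart's number, and the mean and SD of each group (black bar, n = 3). Young heart 15 sits with the aged hearts for Vegfa, Egln3, Bnip3 and Egln1, whereas for Hif1a and Adm all 3 young hearts lie below all 3 aged hearts.

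**Figure D2:**
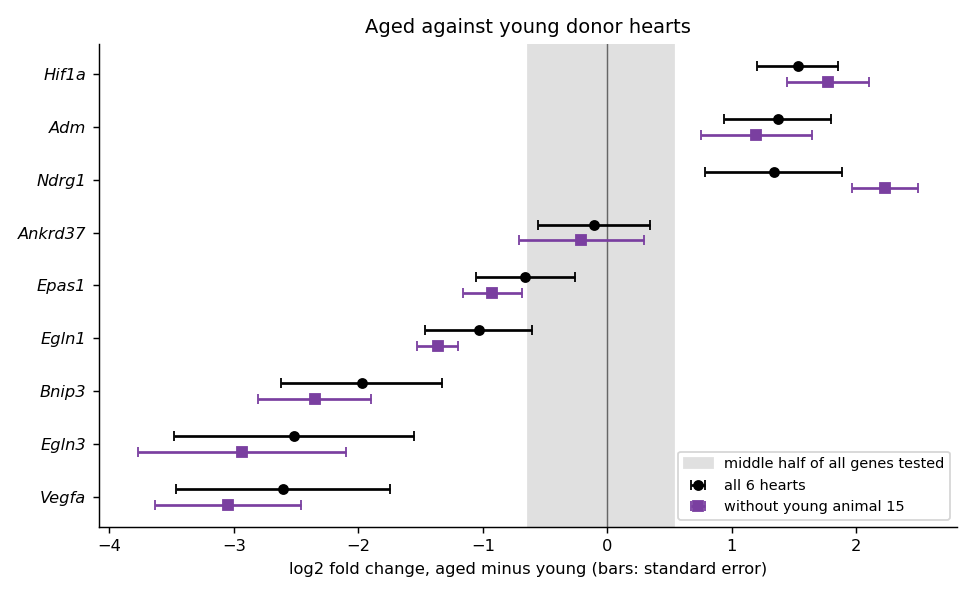
Log2 fold change (aged minus young) with its standard error from edgeR, for all 6 hearts (black) and without young heart 15 (purple), beside the interquartile range of all genes tested (grey). With all 6 hearts, Hif1a, at 1.53, is the highest of the 9 and Vegfa, at -2.61, the lowest.

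Promoter windows from RefSeq (build GRCr8) were found for 8 of the 9 genes and are shown for the genes at the extremes of the comparison and for those richest in the HIF core motif. Each covers 250 bases before to 50 after the annotated gene start. Where a gene was listed with several windows, only the first was searched, so other starts were not covered. The letters ACGTG and GCGTG, the core that HIF binds, were searched on both strands and are printed in capitals (CACGT and CACGC on the lower strand). The palindrome CACGTG, which is also the E-box letters, is matched on both strands and was counted as 1 site.
Hif1a, chr6:98359648-98359947, plus strand: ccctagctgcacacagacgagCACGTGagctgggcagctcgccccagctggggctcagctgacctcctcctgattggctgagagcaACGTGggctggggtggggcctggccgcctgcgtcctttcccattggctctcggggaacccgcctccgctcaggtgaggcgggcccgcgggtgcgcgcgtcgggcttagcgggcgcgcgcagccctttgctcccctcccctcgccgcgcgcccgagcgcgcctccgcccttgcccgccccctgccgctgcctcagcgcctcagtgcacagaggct
Vegfa, chr9:22452604-22452903, plus strand: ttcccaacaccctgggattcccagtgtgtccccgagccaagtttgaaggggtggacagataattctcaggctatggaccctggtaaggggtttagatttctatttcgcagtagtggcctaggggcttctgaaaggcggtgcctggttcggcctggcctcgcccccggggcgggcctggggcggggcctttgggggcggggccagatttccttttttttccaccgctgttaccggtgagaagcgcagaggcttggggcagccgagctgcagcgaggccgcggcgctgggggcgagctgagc
Bnip3, chr1:203154913-203155212, minus strand: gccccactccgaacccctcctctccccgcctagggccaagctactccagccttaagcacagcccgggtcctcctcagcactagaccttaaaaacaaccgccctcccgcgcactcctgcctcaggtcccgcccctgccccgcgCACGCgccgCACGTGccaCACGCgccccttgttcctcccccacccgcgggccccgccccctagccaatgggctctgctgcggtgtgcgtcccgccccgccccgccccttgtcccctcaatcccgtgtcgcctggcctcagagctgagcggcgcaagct
Ankrd37, chr16:53001257-53001556, plus strand: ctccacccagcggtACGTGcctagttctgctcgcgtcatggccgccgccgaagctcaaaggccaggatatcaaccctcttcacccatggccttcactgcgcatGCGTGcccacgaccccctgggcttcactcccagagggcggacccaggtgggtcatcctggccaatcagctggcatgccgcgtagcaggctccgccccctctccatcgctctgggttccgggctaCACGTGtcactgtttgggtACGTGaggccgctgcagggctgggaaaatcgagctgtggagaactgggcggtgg
Of the 8 windows, 4 held the letters, those of Hif1a (2 sites), Egln1 (2 sites), Bnip3 (3 sites) and Ankrd37 (4 sites), and those of Epas1, Egln3, Vegfa and Adm held none. Among all 33469 windows of this length, 41.6% held at least 1 match, 5.96% at least 3 separate sites and 2.09% at least 4. The 4 genes with a match differed in expression, as Hif1a was higher and Bnip3 lower in aged donor hearts and Egln1 and Ankrd37 did not pass both limits. A match is a run of letters, not a binding site, and elements farther from the start are outside these windows.

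Hif1a (ENSRNOG00000008292, chromosome 6 from 96810907 to 96856052), whose product is the broadly expressed α subunit, had the smallest p-value of the 9 genes. Its level was 79.6, 91.4 and 125.2 CPM in young hearts 3, 13 and 15 and 387, 198 and 269 CPM in aged hearts 3, 4 and 7. All aged hearts lay above all young hearts, and young heart 15 was the highest of its group. The means were 98.7 ± 23.6 CPM in young and 284.9 ± 95.2 CPM in aged donor hearts (SD, n = 3 each). The log2 fold change was 1.53 (standard error 0.33, a 2.89-fold higher level), with an unadjusted p of 0.00284 and a Benjamini-Hochberg adjusted p of 0.0916 from edgeR, and 2.70% of genes had a smaller p. The two-sided exact permutation test gave p = 0.1, the smallest that 3 hearts against 3 allow. Hif1a was past the limits in all 6 fits that left out 1 heart, with log2 fold changes from 1.25 without aged heart 3 to 1.78 without young heart 15. Hif1a was at 0.78 with the cardiomyocyte marker score as a covariate (unadjusted p = 0.0446, adjusted p = 0.877 from edgeR). In that fit it was the only 1 of the 9 genes past the limits, beside 4.84% of all genes. After adjustment, 0 of all genes in that fit had a p under 0.05, so the call rests on the unadjusted p.

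Epas1 (ENSRNOG00000021318, chromosome 6 from 10306405 to 10387265) encodes HIF-2α, which is prominent in endothelium. Its level was 807, 849.8 and 359 CPM in young hearts 3, 13 and 15 and 427, 506 and 343 CPM in aged hearts 3, 4 and 7. Young heart 15 lay below aged hearts 3 and 4, so the groups overlapped. The log2 fold change of -0.66 (standard error 0.40) had an unadjusted p of 0.146 in edgeR, and without young heart 15 it was -0.92 (unadjusted p = 0.00874, adjusted p = 0.0232 from edgeR). It was -0.12 with library totals alone. With the endothelial marker score as a covariate it was -0.09.

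Of the hydroxylases, Egln3 was lower in aged donor hearts. Egln3 (ENSRNOG00000005053, chromosome 6 from 75050329 to 75075795) encodes PHD3, an enzyme that is itself induced by HIF. It was at 271 and 372 CPM in young hearts 3 and 13 but at 58.5 CPM in young heart 15, and at 7.78, 39.3 and 75.4 CPM in aged hearts 3, 4 and 7. Only young hearts 3 and 13 were above every aged heart. The log2 fold change was -2.52 (standard error 0.96, unadjusted p = 0.0376, adjusted p = 0.127 from edgeR), and the two-sided exact permutation test gave p = 0.2. Egln3 was past the limits in 2 of the 6 fits that left out 1 heart, those without young heart 15 (log2 fold change -2.93) and without aged heart 7 (-3.30), and was lost without young heart 3 (-2.40), young heart 13 (-2.01), aged heart 3 (-2.02) or aged heart 4 (-2.48). With the cardiomyocyte marker score as a covariate its sign turned, to 0.27 (standard error 0.66, unadjusted p = 0.7 from edgeR), so no direction is given there.

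Egln1 (ENSRNOG00000019773, chromosome 19 from 57662278 to 57699113) encodes PHD2, the main HIF-α hydroxylase in most tissues. Its level was 113, 124.5 and 38.7 CPM in young hearts 3, 13 and 15 and 42.1, 41.5 and 51.4 CPM in aged hearts 3, 4 and 7. The aged hearts were close together, and young heart 15 was the lowest of all 6. The log2 fold change was -1.03 (standard error 0.43, unadjusted p = 0.0513 from edgeR), just outside the limits. Without young heart 15 it became -1.36 (unadjusted p = 2.01e-04, adjusted p = 0.00234 from edgeR). That was the only 1 of the 6 fits leaving out 1 heart in which Egln1 passed the limits. Without young heart 13 it was -0.75 (unadjusted p = 0.153 from edgeR). It was -0.47 with library totals alone and -0.34 with the cardiomyocyte covariate (unadjusted p = 0.643 from edgeR). Egln1 also passed the limits with DESeq2, with limma-voom and with no filter beyond 1 read.

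The secreted targets differed in opposite directions. Vegfa (ENSRNOG00000019598, chromosome 9 from 17340341 to 17355681), the principal angiogenic growth factor, was at 1035, 1216 and 166 CPM in young hearts 3, 13 and 15 and at 55.4, 113 and 229 CPM in aged hearts 3, 4 and 7. Young hearts 3 and 13 were far above the rest, and young heart 15 lay between aged hearts 4 and 7. The means were 805.5 ± 561 CPM in young and 132 ± 88.4 CPM in aged donor hearts (SD, n = 3 each). The log2 fold change of -2.61 (standard error 0.86, a 6.09-fold lower level) was the largest in size of the 9 (unadjusted p = 0.0212, adjusted p = 0.104 from edgeR, exact permutation p = 0.2, two-sided), and 3.78% of all genes had a lower one. It was past the limits in 3 of the 6 fits that left out 1 heart, lost without young heart 13 (-2.18), aged heart 3 (-2.23) or aged heart 4 (-2.49), and -3.05 without young heart 15. With the cardiomyocyte marker score as a covariate, Vegfa was at -0.44 (unadjusted p = 0.679 from edgeR), and with the endothelial score at -1.88 (unadjusted p = 0.234 from edgeR).

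Adm (ENSRNOG00000027030, chromosome 1 from 175445088 to 175447259), which encodes the vasodilator adrenomedullin, was the other gene besides Hif1a for which young heart 15 did not resemble the aged hearts. It was at 14.1, 12.96 and 8.09 CPM in young hearts 3, 13 and 15 and at 45.2, 15.9 and 29.7 CPM in aged hearts 3, 4 and 7. The groups did not overlap, although young heart 3 and aged heart 4 were close, and young heart 15 was the lowest of all. Its log2 fold change was 1.37 (standard error 0.43, unadjusted p = 0.017, adjusted p = 0.0981 from edgeR, exact permutation p = 0.1, two-sided). Adm was past the limits in 5 of the 6 fits that left out 1 heart, and without aged heart 3 it was 0.97 (unadjusted p = 0.0529 from edgeR). With the cardiomyocyte covariate it was 0.75 (unadjusted p = 0.319 from edgeR).

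Among the intracellular targets, Bnip3 was lower and Ndrg1 higher. Bnip3 (ENSRNOG00000017243, chromosome 1 from 211248098 to 211265282), a mitochondrial mitophagy receptor, was at 158, 204 and 44.3 CPM in young hearts 3, 13 and 15 and at 19.1, 29.0 and 55.4 CPM in aged hearts 3, 4 and 7. Its order among the hearts was that of Vegfa, with young heart 15 between aged hearts 4 and 7. A log2 fold change of -1.97 (standard error 0.65, unadjusted p = 0.0206, adjusted p = 0.103 from edgeR, exact permutation p = 0.2, two-sided) was past the limits in 3 of the 6 fits that left out 1 heart, and lost without young heart 13 (-1.55), aged heart 3 (-1.68) or aged heart 4 (-1.85). Bnip3 was at -0.40 with the cardiomyocyte covariate (unadjusted p = 0.629 from edgeR) and at -1.49 with the endothelial covariate (unadjusted p = 0.181 from edgeR).

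Ndrg1 (ENSRNOG00000007393, chromosome 7 from 107734323 to 107775714), which encodes a stress-responsive cytoplasmic protein, was at 39.6, 34.4 and 126.9 CPM in young hearts 3, 13 and 15 and at 221, 147 and 139.8 CPM in aged hearts 3, 4 and 7. The groups did not overlap, but young heart 15 lay near aged hearts 4 and 7. For Ndrg1 the log2 fold change was 1.34 (standard error 0.55, unadjusted p = 0.0484, adjusted p = 0.143 from edgeR, exact permutation p = 0.1, two-sided). Of the 6 fits that left out 1 heart, only that without young heart 15 kept Ndrg1 past the limits, with a log2 fold change of 2.23 (adjusted p = 0.00234 from edgeR). Without young heart 3, young heart 13, aged heart 3, aged heart 4 or aged heart 7 the values were 1.07, 1.02, 1.10, 1.43 and 1.46. Ndrg1 was at 0.34 with the cardiomyocyte covariate (unadjusted p = 0.56 from edgeR) and at 1.09 with the endothelial covariate (unadjusted p = 0.0534 from edgeR).

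Ankrd37 (ENSRNOG00000031335, chromosome 16 from 49462889 to 49465888), an ankyrin repeat protein gene with several HIF motif sites before its start, was read only 19 to 52 times in each heart. It was at 2.06, 1.21 and 1.20 CPM in young hearts 3, 13 and 15 and at 0.89, 1.25 and 1.99 CPM in aged hearts 3, 4 and 7. The groups overlapped throughout. Its log2 fold change was -0.11 (standard error 0.45, unadjusted p = 0.814 from edgeR) and turned positive under some settings (0.35 with library totals alone), so no direction is given.

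Compared per length, in FPKM, the balance between related genes differed within the hearts, a measure that does not depend on scaling between libraries. The ratio of Hif1a to Epas1 was 0.121, 0.132 and 0.428 in young hearts 3, 13 and 15 and 1.11, 0.482 and 0.966 in aged hearts 3, 4 and 7. Every aged heart had a higher ratio than every young heart, by 2.08 on the log2 scale between the group means, and in aged heart 3 Hif1a exceeded Epas1. The ratio of Egln3 to Egln1 was 0.569, 0.71 and 0.359 in young hearts 3, 13 and 15 and 0.0439, 0.225 and 0.349 in aged hearts 3, 4 and 7, a difference of -1.80. The groups did not overlap, although young heart 15 and aged heart 7 were nearly equal. Egln1 is listed with a gene model of only 669 bases, which enters its FPKM in every heart alike.

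The ratio of Vegfa to Adm was 28.6, 36.7 and 8.01 in young hearts 3, 13 and 15 and 0.48, 2.77 and 3.02 in aged hearts 3, 4 and 7. This was the widest difference among the 4 ratios, -3.68 on the log2 scale, and the groups did not overlap. The ratio of Bnip3 to Bnip3l, which encodes the related mitophagy receptor NIX, was 3.31, 4.28 and 1.25 in young hearts 3, 13 and 15 and 0.434, 0.953 and 1.34 in aged hearts 3, 4 and 7, a difference of -1.67 with overlap between young heart 15 and aged heart 7. The two-sided exact permutation test gave p = 0.1 for the ratios of Hif1a to Epas1, Egln3 to Egln1 and Vegfa to Adm (0.133 after Benjamini-Hochberg adjustment over the 4 ratios) and p = 0.2 for Bnip3 to Bnip3l (0.2 adjusted), where 0.1 is the smallest this design can give. Without aged heart 3, the ratio of Egln3 to Egln1 differed by -0.91.

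**Figure D3:**
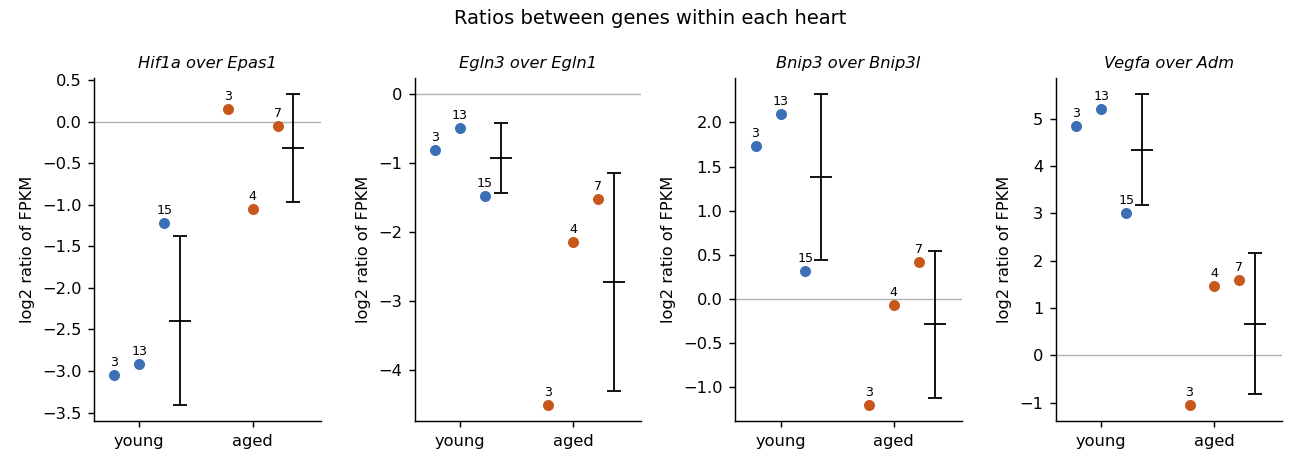
Log2 ratio of FPKM between related genes in each young (blue) and aged (orange) donor heart, with the mean and SD of each group (black bar, n = 3). Aged hearts lie above young hearts for Hif1a over Epas1 and below them for Egln3 over Egln1 and Vegfa over Adm, with differences of 2.08, -1.80 and -3.68.

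The order of the 9 genes by FPKM also differed between hearts. Vegfa ranked 1 of 9 in young hearts 3 and 13 at 225 and 251 FPKM, but 3 of 9 in young heart 15 at 50.8 FPKM and 6, 5 and 4 of 9 in aged hearts 3, 4 and 7 at 19.4, 35.9 and 74.9 FPKM. Hif1a ranked 6 of 9 in young hearts 3 and 13 at 15.4 and 16.8 FPKM, 5 of 9 in young heart 15 at 34.2 FPKM, and 1, 3 and 3 of 9 in aged hearts 3, 4 and 7 at 120.4, 56.3 and 78.4 FPKM. Ankrd37 was the lowest of the 9 in every heart, from 1.02 to 2.65 FPKM. Epas1 varied less, from 79.8 to 127 FPKM in young and from 81.2 to 117 FPKM in aged donor hearts, so on this scale its groups did not differ beyond their spread.

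Set beside the cardiomyocyte marker sum, the 9 genes divided further. Vegfa, Egln3 and Bnip3 were highest in young hearts 3 and 13, where the sum was highest, and lowest in aged heart 3, where it was lowest. Hif1a and Ndrg1 were highest in aged heart 3 and lowest in young hearts 3 and 13. As a ratio to the cardiomyocyte marker sum within each heart, all 9 genes were higher in every aged than in every young donor heart. The log2 differences ran from 1.32 for Egln3, 1.59 for Vegfa and 2.14 for Bnip3 to 5.49 for Hif1a and 5.56 for Ndrg1. That sum itself was lower in every aged donor heart, so a higher ratio is not a higher level. Ankrd37, at a log2 fold change of -0.11 from edgeR, was at 3.84 on this scale, above Egln3, Vegfa and Bnip3. The share of all genes separated in this way was not computed, here or for the endothelial sum below. These counts therefore do not set the 9 genes apart. As a ratio to the endothelial marker sum, the log2 difference was 1.56 for Hif1a and 1.34 for Adm, with no overlap between groups, with a two-sided exact permutation p of 0.1 for each. On that scale the groups overlapped for Ndrg1, at 1.63, although they did not in CPM. They also overlapped for Egln3 (-2.61), Vegfa (-2.34), Bnip3 (-1.79), Egln1 (-0.81), Epas1 (-0.52) and Ankrd37 (-0.084), with an exact permutation p of 0.2 for each of these and Ndrg1 except Ankrd37, for which it was 1.

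**Figure D4:**
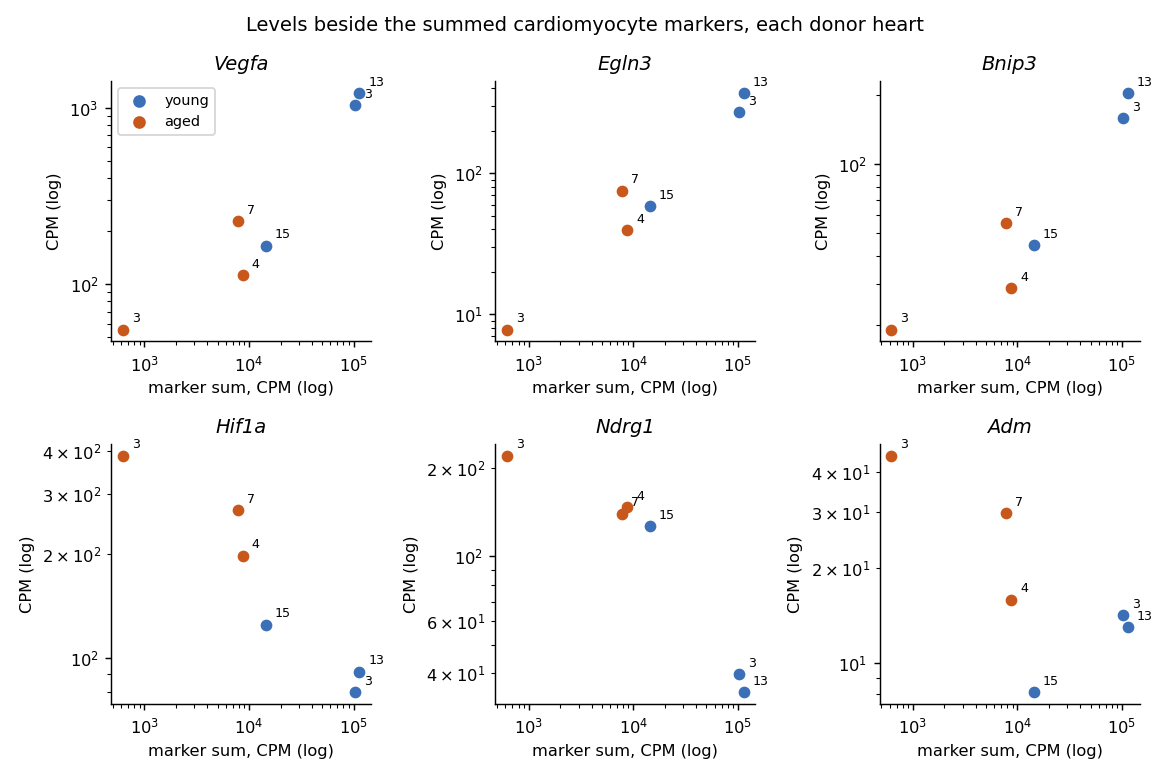
Level of 6 genes (CPM, log axis) against the summed level of 11 cardiomyocyte markers (CPM, log axis) in each young (blue) and aged (orange) donor heart, labelled by heart number. Young heart 15, at a marker sum of 14408 CPM, lies near aged hearts 4 and 7 for Vegfa, Egln3, Bnip3 and Ndrg1 but is the lowest of all 6 hearts for Adm.

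The remaining parts of the HIF system were compared with the same fit. Of 7 other subunits and partners, 0 were past the limits (edgeR, 0 with an unadjusted p under 0.05), beside 32.2% of all genes. Their median log2 fold change was 0.087. Arnt, the shared partner of the α subunits, was at -0.047 (standard error 0.18) and Arnt2, its paralog, at 0.88 (standard error 0.90). Hif3a, another α subunit, was read only 1 to 45 times in each heart and was at -2.32 (standard error 1.20, unadjusted p = 0.0978 from edgeR). The coactivators Ep300 and Crebbp were at -0.020 and 0.087, Hsp90ab1, a chaperone of HIF-α, was at 0.091, and Cited2, a HIF-induced inhibitor of coactivator binding, was at 1.04 (standard error 0.47, unadjusted p = 0.0664 from edgeR). Without young heart 15, Arnt2 and Cited2 were past the limits and higher and Hif3a past them and lower. In that fit 26.9% of all genes were higher and 24.2% lower.

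Of 10 other oxygen sensing and degradation genes, 0 were past the limits, beside 32.2% of all genes. However, Os9, a protein linked to HIF-α hydroxylation, had an unadjusted p of 0.0456 at a log2 fold change of 0.47 in edgeR. The median of the 10 was 0.0097. Egln2, the remaining prolyl hydroxylase gene, was at 0.16 (standard error 0.19), Vhl, the ligase subunit, at 0.33 (standard error 0.16) and Hif1an, the asparaginyl hydroxylase of HIF-α, at -0.69 (standard error 0.31, unadjusted p = 0.0673 from edgeR). The ligase components Elob, Eloc, Cul2 and Rbx1 lay between -0.12 and 0.045, and Siah1 and Siah2, ligases that act on prolyl hydroxylases, were at -0.15 and 0.035. Without young heart 15, 1 of the 10 was higher (Os9) and 1 lower (Hif1an) past the limits, beside 26.9% and 24.2% of all genes.

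Target genes beyond the 9 were split as well. Of 22 listed glycolytic and glucose targets, 21 were in the table and 19 were tested, of which 3 were higher, 5 lower and 11 not past both limits, with a median log2 fold change of -0.20. The 3 higher were Slc2a1 (a 2.23-fold higher level), the glucose transporter GLUT1, Pfkfb3 (log2 fold change 1.41), an activator of glycolytic flux, and Slc16a3 (3.02), the lactate exporter MCT4. The lower genes with the smallest p-values were Gys1 (-2.55), glycogen synthase, Pdk1 (-2.34), the kinase that holds back pyruvate dehydrogenase, Tpi1 (-1.14), a glycolytic enzyme, and Hk1 (-0.72), a hexokinase. Slc16a3 rested on 25 to 508 reads in young and 992 to 2656 reads in aged donor hearts. Without young heart 15, 5 were higher and 7 lower.

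Of 41 other listed targets, 40 were tested, of which 9 were higher, 11 lower and 20 not past both limits, with a median log2 fold change of 0.091. The higher genes with the smallest p-values were Hilpda (2.12), an inhibitor of lipolysis, Nos2 (3.06), inducible nitric oxide synthase, Angptl4 (4.13), an inhibitor of lipoprotein lipase, and Plin2 (2.09), a lipid droplet protein. The lower genes with the smallest p-values were Ddit4 (-0.998), an mTORC1 inhibitor, Kdm4b (-1.20), a histone demethylase, Vldlr (-1.68), a lipoprotein receptor, and Insig2 (-0.98), a regulator of sterol synthesis. Nos2 was read 7 to 10 times in young and 43 to 181 times in aged donor hearts. Without young heart 15, 14 were higher and 12 lower. Over both target lists, 12 of 59 genes tested were higher (20.3%, beside 13.2% of all genes) and 16 lower (27.1%, beside 19.0%), and their median log2 fold change was 0.054. Without young heart 15, 19 of the 59 were higher (32.2%, beside 26.9% of all genes) and 19 lower (32.2%, beside 24.2%).

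**Figure D5:**
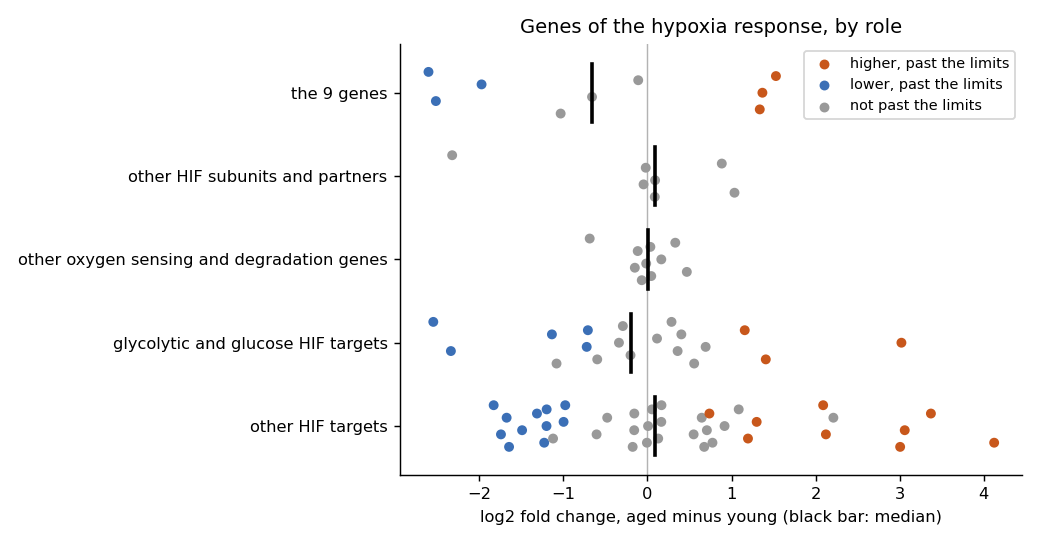
Log2 fold change (aged minus young, edgeR) of each tested gene in the 9 genes and in the other lists of the hypoxia response, coloured by whether it was past the limits, with the median of each list (black bar). Other subunits and oxygen sensing genes have 0 past the limits, where 32.2% of all genes are past them. The target lists spread to both sides of 0, from -2.55 for Gys1 to 4.13 for Angptl4.

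The genes most like each of the 9 in pattern were sought among 9559 genes with a mean of at least 10 CPM, by the root mean square difference of gene-centred log2 CPM over the 6 hearts. Nearest to Hif1a were Sema6b (0.083), Akna (0.095) and Ednrb (0.11), and to Ndrg1 Sh3pxd2b (0.069), Clip2 (0.093) and Lrp1 (0.10). Nearest to Vegfa was Pdk1 (0.18), itself a listed HIF target, followed by Chpt1 (0.23) and Aldh6a1 (0.26). Egln3 was nearest to Oxct1 (0.20), Ndrg2 (0.25) and Ldhd (0.25), and Bnip3 to Cecr2 (0.16), Dnaja4 (0.19) and Bckdhb (0.19). Epas1 was nearest to Cd74 (0.075), Ptprg (0.075) and Mroh1 (0.12), and Egln1 to Pde4d (0.070), Ercc5 (0.10) and Akr1b1 (0.11). Adm was nearest to Fam43a (0.14), Dgat2 (0.15) and Crispld2 (0.19), and Ankrd37, at its low counts, to LOC499235 (0.17), Pard3 (0.18) and Zc3h8 (0.18). Among the 9 themselves, the closest were Epas1 and Egln1 (0.33), Vegfa and Bnip3 (0.40), Hif1a and Ndrg1 (0.45), Egln3 and Vegfa (0.46) and Hif1a and Adm (0.48).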

How the data were processed

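RNA-Seq of polyadenylated RNA was performed on 3 young and 3 aged donor hearts. The authors deposited raw read counts per Ensembl gene, without normalization, and FPKM values in which the authors divided each count by the gene length and library total. This was checked on 133500 values and held within 0.1% for all but 1, which was in none of the 9 genes. The submitters' processing notes name HISAT2 2.0.5, featureCounts 1.5.0-p3, StringTie 1.3.3b, DESeq2 1.16.1 and the build Rnor_6.0, without their roles, and the use of strand is not given in the sources used here. None of the 9 genes overlaps another gene of the table.

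The counts of 13784 genes that passed filterByExpr were fitted over all 6 hearts in edgeR 4.0.16 (R 4.3.3) with TMM scaling, the quasi-likelihood test and no covariate, and p-values were adjusted after Benjamini and Hochberg. A prior count of 2 entered log2 CPM. Standard errors are the log2 fold change over the square root of F. Ratios were tested by exact permutation in scipy 1.17.1. Alternatives used limma 3.58.1 and DESeq2 1.42.0. The steps were also run on simulated counts. These held no cell type differences and no outlying heart, so that run does not bear on such features of these data. Named were the 9 genes, every listed subunit or sensor, up to 4 target genes a direction by smallest p, and the 3 genes nearest each of the 9. The genes and lists were chosen with earlier results of these data known. At 3 counts, the smallest signal, libraries reach 0.122 to 0.14 CPM. The animals are separate hearts, and young hearts 3 and 13 differed beyond sampling noise (chi-square 9.81 per degree of freedom). They were the most alike of the pairs compared, all of which lay within a group.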

Additional observations from a re-analysis of the deposited data

How the results depend on the processing

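The count of 6 genes past the limits (3 higher, 3 lower) depended on the settings. It was 0 (0 higher, 0 lower) with adjusted p-values, 1 (1 higher, 0 lower) with the cardiomyocyte marker score as a covariate and 2 with 0 lower with the endothelial score, while limma-voom gave 5 lower. Across the fits that left out 1 heart it ran from 1 to 8, with 1 to 3 higher and 0 to 5 lower. Over all genes, 4436 were past the limits, against 0, 667, 2494 and 7503 under those settings and 2432, 2495 and 7214 without young heart 3, 13 or 15. Ankrd37 reversed to 0.35 with library totals alone, 0.20 and 0.31 with limma on log2(FPKM + 1) and log2(FPKM + 0.1), 0.59 with the cardiomyocyte covariate, and 0.19 and 0.13 without young or aged heart 3 (range -0.47 to 0.19 with 1 heart left out), and Egln3 to 0.27 with that covariate. The causes were not tested. Scaling by library totals alone moved the calls over all genes from 40.9% to 68.6% higher, and the 9 genes kept their signs once that shift in the median was subtracted. The other 7 genes kept their direction in every setting. Chosen after the data were seen, leaving out young heart 15 gave 2 higher and 1 lower among other subunits, 1 higher and 1 lower among oxygen sensing genes, 5 higher among glycolytic and 14 higher among other targets. Over all genes, 26.9% were higher and 24.2% lower in that fit. The ratios kept their direction throughout, and 21 of the 27 nearest genes were shared with a minimum of 1 CPM. No paired analysis was possible because the groups share only 1 number, which marks different animals. With 3 hearts a group, exact tests could not go below p = 0.1. Hif3a, Ankrd37 and Nos2 had few reads in some or all hearts, and the part of depth in their values was not tested.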
